A study of Mus musculus with 4 samples.

Results

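The 8 genes Scx, Mkx, Tnmd, Egr1, Egr2, Osr1, Osr2 and Tcf7l2, which mark or drive tendon and muscle connective tissue, were followed through 4 lists of H3K27ac peaks. H3K27ac is a histone acetylation found at active promoters and enhancers. GENCODE lists 21757 protein-coding genes for GRCm39, of which these 8 were chosen for their known role in these tissues. For each gene, all peak intervals in the gene body or within 150 kb of the start site of its canonical transcript were collected. An interval was assigned to the gene's own promoter if it touched the stretch from 2 kb upstream to 500 bp downstream of any of its coding start sites, to another promoter if it touched such a stretch of another coding gene, and was otherwise distal. The windows covered 2.44 Mb and held 292 intervals over the 4 lists, of which 35 lay at an own promoter, 133 at a promoter of another gene and 124 were distal.

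All 4 populations came from mouse fetuses at E14.5 that were derived by tetraploid aggregation from the G4 embryonic stem cell line, homozygous for a regulatory sensor in which EGFP was placed upstream of Col2a1, the collagen gene of cartilage. Limbs and trunks were dissected and sorted into cells with EGFP (EGFP+) and without it (EGFP−), giving limb EGFP+, limb EGFP−, trunk EGFP+ and trunk EGFP− cells. Tissue of several fetuses was pooled, and 1 library was made per population. The EGFP− fractions are mixtures of all the remaining cell types of the tissue, and EGFP was the only marker that separated the fractions after debris, dead cells and doublets had been gated out. No population had a replicate, so no test between populations was possible and each comparison below is a comparison of 1 library with another. By their names the limb libraries were run on one sequencing lane and the trunk libraries on another, and effects of lane and of tissue cannot be told apart. The peak names of the trunk EGFP− list say replicate 2, whereas the sample label says replicate 1.

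Tendon and muscle connective tissue are mesenchymal tissues that develop beside the cartilage. Scx, a bHLH transcription factor, marks tendon and ligament progenitors, Mkx is a homeodomain factor needed for tendon collagen production, and Tnmd is a membrane glycoprotein of differentiated tendon cells. Egr1 and Egr2 are zinc finger factors that respond rapidly to signals and promote tendon collagen expression. Osr1 and Osr2, zinc finger factors related to odd-skipped, are found in irregular connective tissue and around joints, and Tcf7l2, a DNA-binding effector of WNT signalling, is a standard marker of the fibroblasts of muscle connective tissue.

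Sequences of GRCm39 around the regions on which the comparisons below turn are given here, 125 bp on each side of the strongest summit, on the plus strand. They are the Scx region found in the EGFP+ lists of both tissues, 3 Tcf7l2 regions of the same kind, the Egr2 promoter, and the only region that was found in both EGFP− lists and in neither EGFP+ list. The sequences were read from the genome and are not sequences of the reads. Capitals mark matches, on either strand, to the E-box CANNTG bound by bHLH factors such as SCX, the SOX half-site ACAAAG, the TCF/LEF core CTTTGA, the TEAD core GGAATG and the EGR core GCGNGGGCG. The Egr2 sequence 110 kb downstream has no such match. Of the 5 Tcf7l2 regions found in the EGFP+ lists of both tissues only, those 74.1 and 135 kb downstream are not shown. The one at 135 kb also has no match. The 2 Egr1 regions of this kind are not shown either.
Scx 5.26 kb downstream, in an intron of Bop1, chr15:76346697-76346947: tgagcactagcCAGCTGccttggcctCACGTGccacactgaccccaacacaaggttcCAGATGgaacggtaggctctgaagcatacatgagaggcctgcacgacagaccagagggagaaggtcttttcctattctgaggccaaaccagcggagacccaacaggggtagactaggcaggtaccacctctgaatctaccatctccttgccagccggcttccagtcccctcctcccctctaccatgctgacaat
Tcf7l2 37.7 kb downstream, intron, chr19:55767790-55768040: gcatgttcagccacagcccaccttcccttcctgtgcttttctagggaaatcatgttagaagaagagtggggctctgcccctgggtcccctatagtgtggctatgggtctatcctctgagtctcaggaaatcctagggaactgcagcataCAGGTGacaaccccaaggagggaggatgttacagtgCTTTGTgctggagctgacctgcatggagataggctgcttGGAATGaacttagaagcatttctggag
Tcf7l2 73.2 kb downstream, intron, chr19:55803255-55803505: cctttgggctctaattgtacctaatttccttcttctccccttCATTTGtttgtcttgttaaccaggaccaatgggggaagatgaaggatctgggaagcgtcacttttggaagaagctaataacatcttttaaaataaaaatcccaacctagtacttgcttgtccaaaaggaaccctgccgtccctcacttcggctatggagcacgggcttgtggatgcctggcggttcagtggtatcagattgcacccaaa
Tcf7l2 102 kb downstream, intron, chr19:55832367-55832617: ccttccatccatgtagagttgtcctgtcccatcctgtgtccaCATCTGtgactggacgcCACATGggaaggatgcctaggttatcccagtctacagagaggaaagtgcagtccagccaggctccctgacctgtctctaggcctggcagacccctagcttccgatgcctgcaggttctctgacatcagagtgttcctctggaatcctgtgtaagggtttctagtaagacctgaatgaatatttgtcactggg
Egr2 promoter, 0.223 kb upstream, chr10:67373344-67373594: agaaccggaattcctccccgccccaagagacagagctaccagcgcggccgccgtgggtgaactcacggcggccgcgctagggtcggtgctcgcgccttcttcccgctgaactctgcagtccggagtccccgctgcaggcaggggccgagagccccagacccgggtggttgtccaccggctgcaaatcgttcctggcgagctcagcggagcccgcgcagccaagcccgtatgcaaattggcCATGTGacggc
Egr2 110 kb downstream, intergenic, chr10:67483869-67484119: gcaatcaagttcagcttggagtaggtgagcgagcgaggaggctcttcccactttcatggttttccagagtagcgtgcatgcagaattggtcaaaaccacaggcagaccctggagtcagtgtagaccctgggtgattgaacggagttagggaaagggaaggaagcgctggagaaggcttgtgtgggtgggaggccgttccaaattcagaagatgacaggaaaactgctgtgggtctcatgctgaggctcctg

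The lists held 40899 intervals for limb EGFP+, 34360 for limb EGFP−, 36231 for trunk EGFP+ and 30716 for trunk EGFP− cells, of which 22833, 17768, 19295 and 14231 were distal. The number of reads at a summit follows from the fold and the −log10 p in the lists, and its median was 24 to 26 reads in the 4 lists. The labels were checked against promoters of marker genes. Of 10 chondrocyte genes, 10 had an interval at their promoter in each EGFP+ list, 3 had one in limb EGFP− cells and 2 in trunk EGFP− cells. Of 6 skeletal muscle genes, 1 (Myog) had one, in limb EGFP+ cells, at rank 81.1%. None of 5 epithelial, 4 endothelial and 4 blood and immune genes had a promoter interval in any list, and the defining promoters of these cell types were thus missing from the EGFP− lists as well. Of 4 neuronal and glial genes, 1 had an interval in limb EGFP+ and 1 in trunk EGFP− cells. Of the 3 limb genes, 3, 2, 1 and 0 had a promoter interval in limb EGFP+, limb EGFP−, trunk EGFP+ and trunk EGFP− cells, and of the 3 axial genes 1, 0, 3 and 0. A missing interval means only that the site did not reach the threshold of its list, whose lowest −log10 q was 1.30 in each case, and not that acetylation was absent. In sorted bulk cells, fewer cells with the mark and less mark per cell cannot be told apart.

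In each list 6 of the 8 genes had an interval at their own promoter, beside 54% of all coding genes in limb EGFP+, 51.2% in limb EGFP−, 52.2% in trunk EGFP+ and 52.2% in trunk EGFP− cells. They were not the same genes throughout. Mkx, Egr1, Egr2, Osr2 and Tcf7l2 had a promoter interval in all 4 lists, Osr1 had one in all but trunk EGFP+ cells, Scx had one in trunk EGFP+ cells alone, and Tnmd had none. Ranks below are by −log10 p as a percentage of the list, so that a rank of 10% means that 10% of the intervals of the list were at least as strong. Reads are given with their exact 95% Poisson interval, which covers counting error only.

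**Figure D1:**
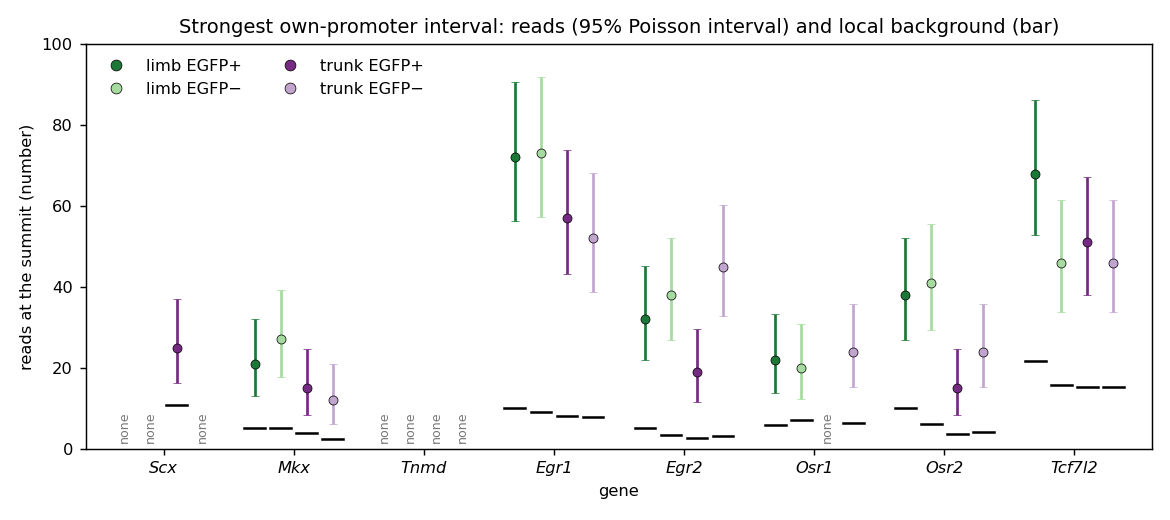
Reads at the summit of the strongest own-promoter interval of each gene (y axis, number of reads) by gene and list, with 1 library per list. Points are reads, error bars their exact 95% Poisson intervals and black bars the local background of the same library; "none" marks a gene without an own-promoter interval. Egr1 has 52 to 73 reads in all 4 lists. Egr2 has 45 in trunk EGFP− against 19 in trunk EGFP+ cells, at summits of different position. The Tcf7l2 summit of trunk EGFP+ cells also differs in position from those of the other lists.

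Scx (chromosome 15, 76341563 to 76344281, plus strand, inside an intron of Bop1) had a single promoter interval, 0.652 kb upstream in trunk EGFP+ cells. It held 25 reads (16.2 to 36.9) over a local background of 10.9 and ranked at 95.2%, near the weak end of that list. The other 3 lists had no interval there. The gene's distal intervals numbered 3 in limb EGFP+, 2 in limb EGFP−, 3 in trunk EGFP+ and 1 in trunk EGFP− cells. Most lay 3.72 to 8.70 kb downstream, in introns of Bop1, a ribosome biogenesis gene transcribed in the opposite direction. The region 5.26 kb downstream, whose sequence is given above, was the only Scx region found in both EGFP+ lists and in neither EGFP− list. There were 41 reads (29.4 to 55.6) at its summit in limb EGFP+ and 54 (40.6 to 70.5) in trunk EGFP+ cells, at ranks of 75.6% and 52.3%. The local background was 17.5 and 21.3 reads, above the medians of 4.72 and 5.21 over every 20th interval of those lists, and the folds were 2.27 and 2.46. A nearby region 3.72 kb downstream was found in limb EGFP+ cells with 50 reads (37.1 to 65.9) and in trunk EGFP− cells with 31 (21.1 to 44.0). The Scx window is dense in genes, with the start sites of 18 other coding genes, and held 83 of the 133 intervals at promoters of other genes, so an interval there cannot be tied to Scx by position.

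Mkx (chromosome 18, 6931133 to 7005516, minus strand) had an interval 0.497 to 1.09 kb inside the gene in all 4 lists. The strongest held 21 reads (13.0 to 32.1) in limb EGFP+, 27 (17.8 to 39.3) in limb EGFP−, 15 (8.40 to 24.7) in trunk EGFP+ and 12 (6.20 to 21.0) in trunk EGFP− cells. Their ranks were 64.9%, 43.1%, 82.3% and 82.1%, so that the promoter was among the stronger 50% of intervals in limb EGFP− cells alone, and all 4 read intervals overlapped. Distal intervals numbered 5, 2, 0 and 2 in the same order. Of 8 merged Mkx regions, 7 were found in a single list, and the one region seen in 2 lists lay 108 kb downstream, with 12 reads (6.20 to 21.0) in limb EGFP+ and 13 (6.92 to 22.2) in limb EGFP− cells. Single-list regions of trunk EGFP−, limb EGFP− and limb EGFP+ cells lay close together without overlapping, 82.1, 82.6 and 82.9 kb upstream. The strongest distal interval ranked at 66.2%, 73.1% and 70.5% in the lists that had one.

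Tnmd (chromosome X, 132751720 to 132766326, plus strand) had no promoter interval in any list. A single distal interval lay in its window, 63.8 kb downstream in an intron of Srpx2 in limb EGFP+ cells, with 12 reads (6.20 to 21.0) and a rank of 83.1%. The coding start site nearest to that interval is that of Srpx2. The other intervals of the window, 1 per list, lay at the promoter of Tspan6 about 47.2 kb downstream. No interval was listed at the body or the promoter of this gene of differentiated tendon cells, at this depth, in any of the populations.

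Egr1 (chromosome 18, 34992876 to 34998049, plus strand) had the highest-ranked promoter of the 8 genes in 3 of the 4 lists, all but trunk EGFP− cells. The strongest interval, 0.439 to 0.529 kb inside the gene, held 72 reads (56.3 to 90.7) in limb EGFP+, 73 (57.2 to 91.8) in limb EGFP−, 57 (43.2 to 73.9) in trunk EGFP+ and 52 (38.8 to 68.2) in trunk EGFP− cells, and all 4 read intervals overlapped. Its ranks were 12.9%, 6.93%, 13.1% and 17.6%, higher in EGFP− than in EGFP+ cells of the limb and lower in those of the trunk. Distal intervals numbered 8, 5, 9 and 4. Of 11 merged Egr1 regions 4 were found in all 4 lists, namely the one 82.1 kb upstream in an intron of Kdm3b, the one 1.20 kb inside the gene, and a pair 27.3 and 28.1 kb downstream. The region in Kdm3b was the strongest distal interval at any of the 8 genes, with ranks of 6.69%, 5.34%, 11.6% and 13.6% and 77, 73, 54 and 54 reads. Its nearest coding start site in every list is that of Kdm3b and not that of Egr1. The 5 Egr1 distal intervals of limb EGFP− and the 4 of trunk EGFP− cells all had a counterpart in the EGFP+ list of their tissue, and the EGFP+ lists added 3 in the limb and 5 in the trunk. The added intervals lay 49.7 to 51.0 kb upstream, in Kdm3b, and 40.4 to 42.0 kb downstream, and the 2 regions shared by both EGFP+ lists held 13 to 16 reads. The nearest coding start sites to the added intervals are those of Reep2 upstream and Etf1 downstream. None of the added intervals is nearest to the Egr1 start site.

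Egr2 (chromosome 10, 67371305 to 67378018, plus strand) had an interval at its promoter in all 4 lists, with higher ranks in the EGFP− list of each tissue. Its strongest interval held 32 reads (21.9 to 45.2) in limb EGFP+, 38 (26.9 to 52.2) in limb EGFP−, 19 (11.4 to 29.7) in trunk EGFP+ and 45 (32.8 to 60.2) in trunk EGFP− cells. The read intervals of the trunk fractions did not overlap, whereas those of the limb fractions did. The trunk summits differed in position, 0.656 kb upstream in EGFP+ and 0.223 kb upstream in EGFP− cells, so these reads are from different sites. Those of the limb lay 0.611 and 0.612 kb upstream. How often read intervals of the fractions fail to overlap over all promoters was not computed. The ranks were 35.6%, 16.8%, 43.6% and 7.57%, and the local backgrounds 5.14, 3.42, 2.64 and 3.22 reads. Distal intervals numbered 2, 3, 2 and 2. The region 110 kb downstream was the only region at the 8 genes that was found in both EGFP− lists and in neither EGFP+ list, with 13 reads (6.92 to 22.2) in limb EGFP− and 15 (8.40 to 24.7) in trunk EGFP− cells. The nearest coding start site to it is that of Ado, a thiol dioxygenase gene whose exon also carried the Egr2 window's only region found in all 4 lists, 10.1 kb downstream.

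Osr1 (chromosome 12, 9538061 to 9631513, plus strand) had a weak promoter interval in 3 lists, with 22 reads (13.8 to 33.3) in limb EGFP+, 20 (12.2 to 30.9) in limb EGFP− and 24 (15.4 to 35.7) in trunk EGFP− cells. The ranks were 68.7%, 90.7% and 62.7%, and trunk EGFP+ cells had none. Distal intervals numbered 8 and 6 in limb EGFP+ and limb EGFP− cells, and 1 and 2 in trunk EGFP+ and trunk EGFP− cells. Of 13 merged regions 10 were found in a single list. In the limb, the fractions shared the region 24.0 kb upstream, with 12 reads (6.20 to 21.0) in EGFP+ and 17 (9.90 to 27.2) in EGFP− cells, and the one 9.95 kb downstream. The former is upstream of the canonical start site but lies in an intron of Osr1. Limb EGFP+ cells alone had 3 intervals between 94.7 and 96.2 kb upstream, and limb EGFP− cells alone had intervals 104 and 114 kb upstream and 32.7 and 38.7 kb downstream. The region 10.7 kb downstream was seen in all lists except limb EGFP−, with 20, 7 and 19 reads in limb EGFP+, trunk EGFP+ and trunk EGFP− cells. It begins at 9634653, close to the end, at 9634579, of the region 9.95 kb downstream. Limb EGFP− cells thus had an interval directly beside it.

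Osr2 (chromosome 15, 35296196 to 35303673, plus strand) had a promoter interval in all 4 lists, with 38 reads (26.9 to 52.2) in limb EGFP+, 41 (29.4 to 55.6) in limb EGFP−, 15 (8.40 to 24.7) in trunk EGFP+ and 24 (15.4 to 35.7) in trunk EGFP− cells. As at Egr2, the EGFP− list of each tissue had the higher rank, with limb ranks of 24.6% in EGFP− and 45.9% in EGFP+ cells and trunk ranks of 43.9% and 79.8%. Read intervals of the fractions overlapped in both tissues. The promoter interval was 912 bp wide in limb EGFP− cells and 571, 538 and 294 bp wide in limb EGFP+, trunk EGFP+ and trunk EGFP− cells. Distal intervals were listed in the limb alone, 4 in EGFP+ and 3 in EGFP− cells, and no distal interval of either fraction overlapped a distal interval of the other, though the one 0.947 kb downstream overlapped the wide promoter interval of limb EGFP− cells. The limb EGFP+ intervals lay 24.4 and 23.8 kb upstream and 0.947 and 12.4 kb downstream, and the limb EGFP− ones 88.8, 27.2 and 17.5 kb upstream.

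Tcf7l2 (chromosome 19, 55730188 to 55922091, plus strand) carried 46 of the 124 distal intervals. There were 24 in limb EGFP+, 2 in limb EGFP−, 15 in trunk EGFP+ and 5 in trunk EGFP− cells, so the EGFP+ list held more in both tissues. The excess of 22 in the limb was reached by 7 coding genes in all, Tcf7l2 included, which is 0.0322% of them, and the excess of 10 in the trunk by 192 genes, or 0.882%. Neighbouring genes share intervals, and the Tcf7l2 window of 342 kb is longer than the 300 kb of the other 7 genes because of its gene body. The limb EGFP+ list is longer than the limb EGFP− list, and with the 20000 strongest intervals of each list the numbers were 4, 1, 7 and 1, so that the limb excess was 3 and the trunk excess 6. Own-promoter intervals numbered 2, 1, 3 and 1. The strongest of them held 68 reads (52.8 to 86.2), 46 (33.7 to 61.4), 51 (38.0 to 67.1) and 46 (33.7 to 61.4) in the order of the lists above. All 4 read intervals overlapped. Their ranks were 36.5%, 49.4%, 37.8% and 48.4%, higher in the EGFP+ list of each tissue, but the trunk ranks are from different sites. The trunk EGFP+ interval lay 1.02 kb inside the gene without a counterpart in trunk EGFP− cells, the others 0.669 to 0.727 kb inside. At 0.684 kb, trunk EGFP+ cells had an interval with 44 reads (32.0 to 59.1) at a rank of 49.5%, slightly below that of trunk EGFP− cells.

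**Figure D2:**
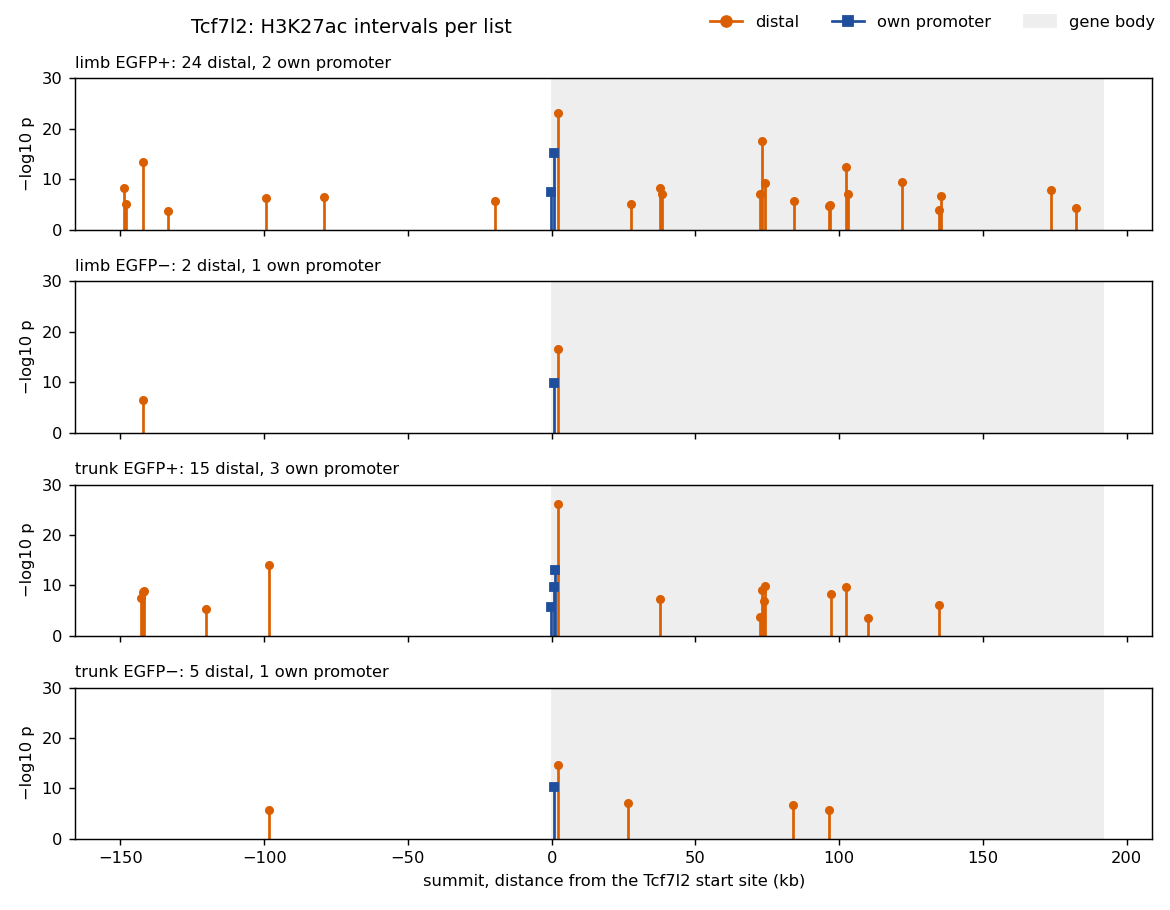
Intervals at Tcf7l2 in the 4 lists, with the distance of the summit from the start site in kb (x axis) and the −log10 p of the interval (y axis). Circles are distal and squares own-promoter intervals, and grey marks the gene body. The region 2.09 kb downstream stands in every list, while those between 37.7 and 135 kb are mostly in the EGFP+ lists.

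Of 26 merged Tcf7l2 regions 22 lay in introns, of Tcf7l2 itself or of its upstream neighbour Vti1a, and 4 were intergenic. A single region was found in all 4 lists, 2.09 kb inside the gene, and was also the strongest distal interval of the window in each of them, with 88, 62, 74 and 58 reads and ranks of 24.7%, 31.3%, 15.9% and 35.1%. Its folds ranked lower, at 75.8%, 79.3%, 41.2% and 79.1% of the lists. Both EGFP+ lists and neither EGFP− list had 5 regions, at 37.7, 73.2, 74.1, 102 and 135 kb, all within Tcf7l2. The region 73.2 kb downstream, whose sequence is given above, held 49 reads (36.3 to 64.8) in limb EGFP+ and 28 (18.6 to 40.5) in trunk EGFP+ cells, with local backgrounds of 10.7 and 7.14. The one at 102 kb held 42 reads (30.3 to 56.8) and 30 (20.2 to 42.8). Limb EGFP+ cells alone had 13 of the 26 regions, trunk EGFP+ cells alone had 2, trunk EGFP− cells alone 1 and limb EGFP− cells alone 0. Among the limb EGFP+ intervals that were alone, the one 122 kb downstream was the strongest, with 21 reads (13.0 to 32.1) at a rank of 53.9%.

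**Figure D3:**
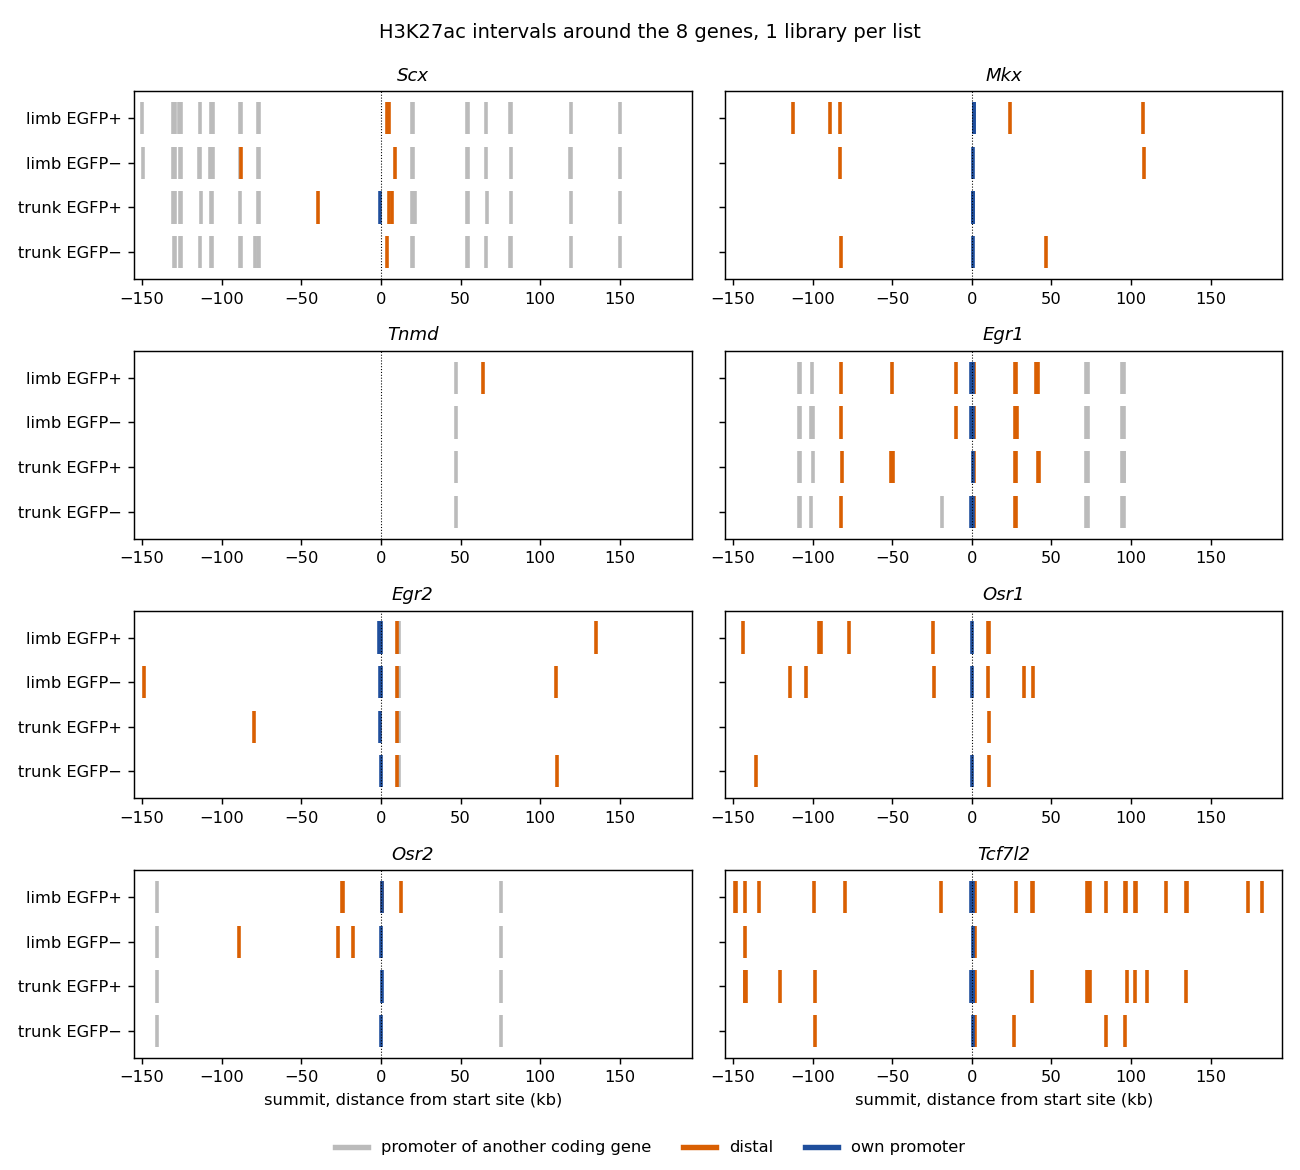
Summits of all 292 intervals by distance from the start site in kb (x axis), 1 row per list and 1 panel per gene. Orange marks are distal, blue marks own-promoter and grey marks other-promoter intervals. The Scx window is filled with promoters of other genes, and the Tcf7l2 window holds 24 distal intervals in limb EGFP+ against 2 in limb EGFP− cells.

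Over the 8 genes, limb EGFP+ cells had 55 distal intervals, limb EGFP− cells 23, trunk EGFP+ cells 30 and trunk EGFP− cells 16. In the limb 7 genes had more in EGFP+ than in EGFP− cells and 1 (Egr2) had fewer, where 40.7% of all coding genes had more and 26.7% fewer. In the trunk 3 genes (Scx, Egr1 and Tcf7l2) had more, 2 (Mkx and Osr1) fewer and 3 equal numbers, where 41.3% of all genes had more and 23.3% fewer. With the 20000 strongest intervals of each list, 1 gene (Tcf7l2) had more in the limb, 1 (Osr1) fewer and 6 equal numbers, and in the trunk 3 genes had more, 1 fewer and 4 equal numbers. For this setting the shares of all coding genes were not computed. Outside Tcf7l2, the differences were small, at most 3 intervals in the limb and at most 5, at Egr1, in the trunk. The Egr1 excess of each tissue lay in intervals nearest to the start sites of Reep2 and Etf1. Excesses of 3 in the limb, as at Mkx and Egr1, were reached by 18.5% of all coding genes.

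**Figure D4:**
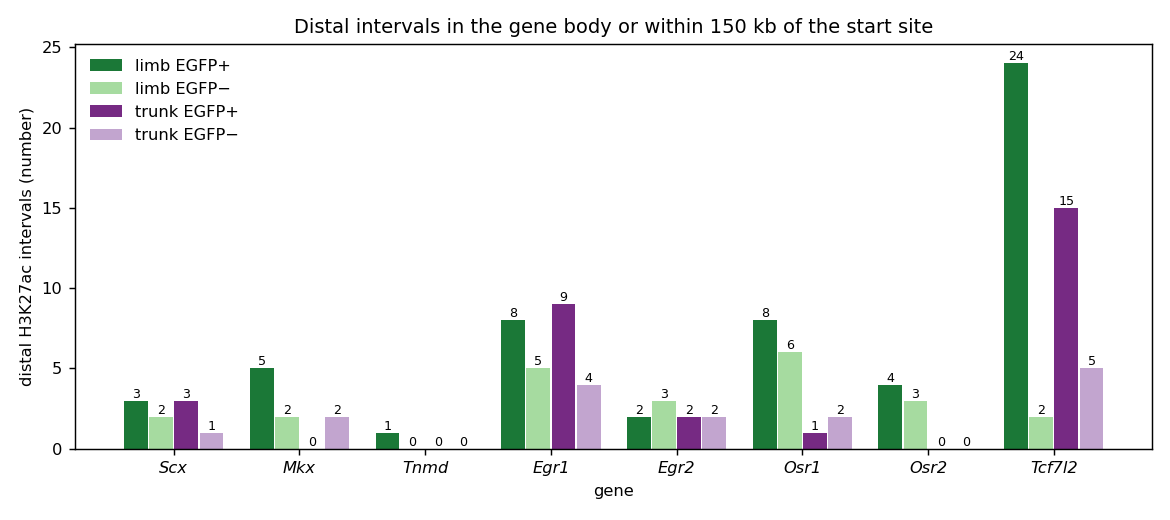
Number of distal H3K27ac intervals (y axis) for each gene and list, 1 library per bar, with the number above the bar. Tcf7l2 has 24, 2, 15 and 5, and no other gene has more than 9 in any list.

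Of the distal intervals in limb EGFP+ cells, 43 of 55 (78.2%, exact 95% binomial interval 65.0 to 88.2, counting error only) had no overlapping interval in limb EGFP− cells, beside 68.5% of all distal intervals of that list. In limb EGFP− cells, 11 of 23 (47.8%, 26.8 to 69.4) had none in limb EGFP+ cells, beside 56.6%. For the trunk the shares were 22 of 30 (73.3%, 54.1 to 87.7) in EGFP+ cells, beside 69.1%, and 8 of 16 (50%, 24.7 to 75.3) in EGFP− cells, beside 57.3%. Each of these intervals includes the share of the whole list. Without Tcf7l2 the shares were 67.7%, 52.4%, 60% and 45.5%, a comparison made after its values had been seen.

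When distal intervals of the 4 lists were merged, 78 regions remained at the 8 genes. A list was counted for a region if any of its intervals overlapped it. Of these, 51 (65.4%) were found in exactly 1 list, beside 61.9% of all 43885 distal regions, and 6 (7.69%) in all 4 lists, beside 10.3%. Both EGFP+ lists and neither EGFP− list had 8 (10.3%), beside 10.8%, of which 5 were at Tcf7l2, 2 at Egr1 and 1 at Scx. Both EGFP− lists and neither EGFP+ list had 1 (1.28%), beside 4.58%. Limb EGFP+ cells alone had 29 regions, limb EGFP− cells 10, trunk EGFP+ cells 8 and trunk EGFP− cells 4.

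The distal intervals at these genes were mostly in the weaker part of their lists. Their median rank was 74.2% in limb EGFP+, 74.5% in limb EGFP−, 60.2% in trunk EGFP+ and 68.3% in trunk EGFP− cells, beside 67.2%, 68.8%, 68.3% and 71.2% for all distal intervals. Median widths were 322, 262, 331.5 and 301.5 bp, beside 331, 294, 324 and 303 bp. By −log10 p, the strongest distal interval of every list ranked at 35.1% or better at Egr1 and Tcf7l2, while at Scx, Mkx, Tnmd and Osr2 none ranked better than 52.3%. At Egr1 the strongest interval, by −log10 p and by fold, was the one in Kdm3b, nearest to the Kdm3b start site. The strongest distal intervals nearest to the Egr1 start site ranked at 35.4%, 29.2%, 27.6% and 36.1% by −log10 p, in the order of the lists above. In limb EGFP− cells this was the one 28.1 kb downstream, and in the other lists the one 1.20 to 1.22 kb inside the gene. Ranked by fold, the best distal interval of Egr1 stood at 7.69%, 6.92%, 10.4% and 14.3% of the lists, and that of Tcf7l2 at 49.6%, 71.7%, 17.5% and 55.9%.

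**Figure D5:**
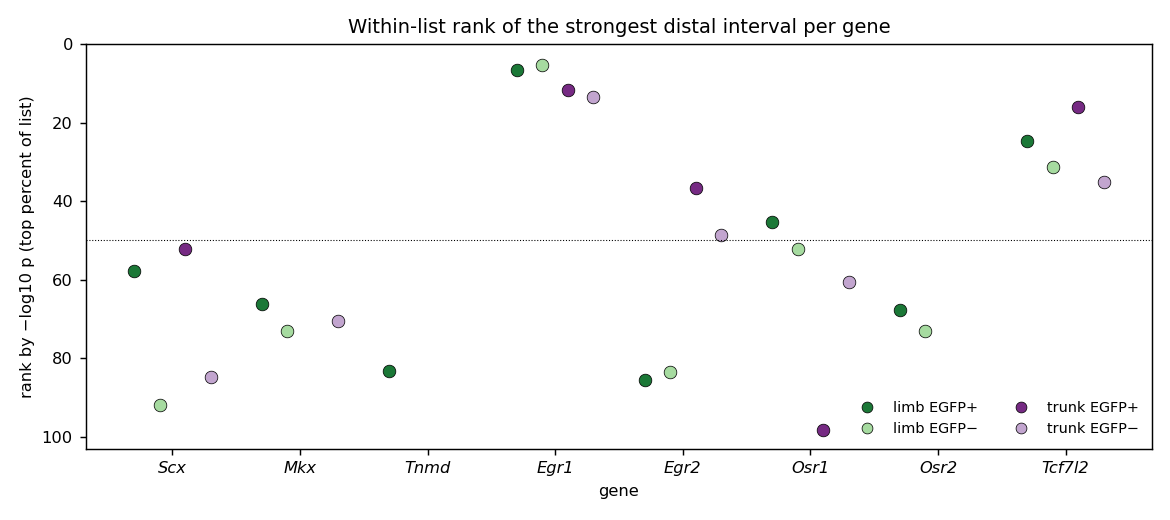
Rank of the strongest distal interval of each gene within its list, as a percentage of the list by −log10 p (y axis, strongest at the top), with 1 point per list and no point where a list has no distal interval. The dotted line marks 50%, and all Egr1 and Tcf7l2 points lie above it. The Egr1 points are the region in Kdm3b, which is nearest to the Kdm3b start site.

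Other genes of the 2 tissues, from lists drawn up with earlier results of these data known, were compared at their promoters. Among all coding genes, the shares with a promoter interval were 54%, 51.2%, 52.2% and 52.2% in the order of the lists above. How often a promoter was marked in the lists of a single fraction alone was not computed over all coding genes. Of 24 tendon genes, 18 had a promoter interval in limb EGFP+, 19 in limb EGFP−, 16 in trunk EGFP+ and 18 in trunk EGFP− cells, and 14 had one in all 4. Kera, a keratan sulfate proteoglycan gene, was marked in an EGFP+ list alone (limb, rank 82.9%). By RNA, however, the paper names Kera among the connective tissue markers that were high in EGFP− cells. Dcn, a proteoglycan gene of collagen fibrils, was marked in both EGFP− lists and in neither EGFP+ list (ranks 39.6% and 63.3%), Tgfb2, a growth factor gene, in limb EGFP− cells (69.9%) and Eya2, a transcriptional coactivator gene, in trunk EGFP− cells (79.0%). Thbs4, a matrix glycoprotein gene, had no promoter interval in any list. Of 14 genes listed for muscle connective tissue, 10, 13, 10 and 10 had a promoter interval in the order of the lists above, and 7 had one in all 4. This list counts Tcf4 on chromosome 18, a gene distinct from Tcf7l2, which had a promoter interval in all 4 lists. Dpt, an extracellular matrix gene, had one in both EGFP− lists alone (39.0% and 95%), Cxcl14, a chemokine gene, in limb EGFP− cells alone (53.9%) and Ebf3, a transcription factor gene, in trunk EGFP+ cells alone (65.7%). In the limb 12 of the 24 tendon genes had more distal intervals in EGFP+ and 11 in EGFP− cells, and in the trunk 13 and 9. For muscle connective tissue these numbers were 9 and 4 in the limb and 7 and 5 in the trunk. Of all coding genes, 40.7% had more in EGFP+ and 26.7% in EGFP− cells of the limb, and 41.3% and 23.3% in the trunk.

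The genes whose own-promoter ranks were closest to each of the 8 across the 4 lists, with a missing interval set to 100% and the distance taken over the 4 ranks, were Nmral1 and Actg1 for Egr1 (distances of 2.10 and 2.14 percentage points), and Nr2c1 and Slc41a3 for Tcf7l2 (3.09 and 3.76). Ggt7 and Acss2, which have the same ranks in every list, came closest to Osr2 (8.60), Zkscan2 and Kif1b to Egr2 (9.12 and 9.31), Susd4 and 1110002E22Rik to Osr1 (10.5 and 10.6) and B3galt4 and Art3 to Mkx (15.7 and 15.9). For Scx, with its single weak interval, they were Hlx and Cdh4 (0.069 and 0.127). Tnmd had no interval and was not matched. Over 4 lists these are descriptions of likeness.

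Short motifs were counted in 501 bp around the summits of the 78 regions, on both strands. E-boxes (CANNTG) were in 87.2% of them, beside 92.7% of all 43885 distal regions, and the E-box CATCTG in 43.6%, beside 37.2%. Every CATCTG is also a CANNTG. The SOX half-site ACAAAG was in 33.3%, beside 38.4%, the TCF/LEF core CTTTGA in 33.3%, beside 31.7%, the TEAD core GGAATG in 25.6%, beside 28.8%, and the EGR core GCGNGGGCG in 2.56%, or 2 regions, beside 0.943%. In the 26 Tcf7l2 regions the shares were 84.6%, 34.6%, 26.9%, 15.4%, 30.8% and 0% in the same order. H3K27ac summits lie on nucleosomes, so these windows describe the sequence around a region and locate no factor.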

How the data were processed

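H3K27ac ChIP-seq peaks of 4 populations, 1 library each, were analysed. The authors sampled equal numbers of reads per library with Seqtk, trimmed them with CutAdapt 1.18, mapped them with Bowtie2 2.3.5.1 to GRCm39, kept well-mapped reads with Samtools and called peaks per library with MACS2 2.2.7.1, per the labels and the methods. Reads were sampled before mapping and filtering, and summit reads were not scaled between lists. Over every 20th interval the lowest local background was 1.49, 1.63, 1.60 and 1.83 reads in limb EGFP+, limb EGFP−, trunk EGFP+ and trunk EGFP− cells. The Poisson intervals do not cover such differences. A control library and the read length of each library are not given in the sources used here, and the labels name another sonicator beside that of the methods. The deposited score is derived by MACS2 from the −log10 q and was not used further. The deposited fold is a ratio of summit reads to local background of the same library, each plus 1, and was never divided between lists. The deposited −log10 p and −log10 q are those of the authors' MACS2 run, corrected within each list.

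Peaks that shared both ends were joined into intervals on chromosomes 1 to 19, X and Y. Promoter windows came from 67388 coding start sites. Summit reads and background were recovered from fold and −log10 p with a misfit in −log10 p of at most 0.000118 for the intervals at the 8 genes. Overlap needed at least 1 bp. Of 4000 simulated intervals, 4000 were joined and 4000 received the right overlap call, and read numbers came back right for 1500 of 1500 simulated summits. With 1 library per population, exact 95% intervals account for counting error only.

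The members, gene lists and rules were chosen with earlier results of these data known. All 8 genes are described. Regions named are the own-promoter and strongest distal intervals per list and those found in a single fraction of both tissues; further regions were named after their values were seen. 1 gene of the related lists is not reported by name here. Alternatives are a −log10 q of at least 5, the 20000 strongest intervals per list, a fold of at least 4, other overlaps, windows, promoter definitions and rankings, and, added after the values were seen, windows from the 5′ end of the gene record and the shares without Tcf7l2. Scripts ran under Python 3.11.15 with scipy 1.17.1, numpy 2.4.6, pandas 2.3.3 and matplotlib 3.10.9.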

Additional observations from a re-analysis of the deposited data

Results flagged for a closer look

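Mkx and Osr1 differed between the tissues in the sign of the fraction difference. At Mkx, EGFP+ cells had 3 more distal intervals than EGFP− cells in the limb (5 against 2), and the difference was -2 in the trunk (0 against 2). At Osr1, EGFP+ cells had 2 more in the limb (8 against 6), and the difference was -1 in the trunk (1 against 2). With 1 library per population the difference between tissues was not tested, and tissue and sequencing lane cannot be told apart.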

How the results depend on the processing

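No paired analysis was possible because each population had 1 library. The excess of distal intervals at Tcf7l2 in EGFP+ cells kept its direction under all 9 alternatives for these counts, from 3 (with the 20000 strongest intervals per list) to 31 in the limb and from 2 to 16 in the trunk. At the other genes small differences were often lost. In the limb, those of Tnmd and Egr2 kept their sign under 3 of 9 alternatives, that of Osr1 under 4, of Osr2 under 6, of Scx and Egr1 under 7 and of Mkx under 8. The Osr1 limb difference became -1 with the 20000 strongest intervals per list, the Egr2 limb difference 1 with a fold of at least 4 and the Mkx trunk difference 1 with windows of 500 kb. The share of distal intervals found in their own fraction alone became 14.3% in limb EGFP− and 14.3% in trunk EGFP− cells with a −log10 q of at least 5 (1 of 7 each), and 62.5% in limb EGFP+ (5 of 8) and 14.3% in trunk EGFP− cells with the 20000 strongest intervals. With promoter windows of every annotated gene, noncoding genes included, it became 93.2%, 72.7%, 90.5% and 80% in limb EGFP+, limb EGFP−, trunk EGFP+ and trunk EGFP− cells. Under the alternatives, the matching values over all distal intervals and all coding genes were not computed. The changed values therefore cannot be read as particular to the 8 genes. The number of genes with an own-promoter interval fell to 3 in trunk EGFP+ cells with a −log10 q of at least 5 and with the 20000 strongest intervals. With a fold of at least 4 it was 2 in limb EGFP+, 2 in trunk EGFP+ and 3 in trunk EGFP− cells. With the 5′ end of the gene record alone it was 3 in limb EGFP+, 3 in limb EGFP− and 2 in trunk EGFP− cells. The cause was not tested. The other 48 of 64 alternative values of these shares and numbers stayed within the counting interval of the share or within 1.5 times the number. Ranking by fold moved 49 of 50 ranks, and ranking by width 50 of 50, beyond their counting interval. Most distal intervals rest on few reads, so their absence from another list is not evidence of a difference in acetylation.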

Other observations

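Some strong intervals in these windows belong by position to other genes. The distal region in Kdm3b, in the Egr1 window, is nearest to the start site of Kdm3b. In the Egr1 window the promoter of Hspa9, a mitochondrial chaperone gene, ranked at 2.10%, 1.85%, 0.497% and 4.26% in limb EGFP+, limb EGFP−, trunk EGFP+ and trunk EGFP− cells, above every own-promoter and distal interval of that window. In the Egr2 window the promoter of Ado ranked at 7.79%, 5.36%, 10.4% and 6.51%. In the Osr2 window the promoters of Stk3 and Vps13b carried an interval in all 4 lists.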
